A study of Mus musculus with 3 samples.

Results

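Inside mouse genes, well away from any annotated start, 3490 genomic regions carried more Nkx2.2 chromatin immunoprecipitation (ChIP) signal in oligodendrocytes (OLs) than in oligodendrocyte progenitor cells (OPCs). They were selected from the 37271 active regions of the deposited table. Of these regions, 30560 overlapped no CpG island, 15586 of them also lay in a gene, and 7778 of those had their smallest distance to a listed gene start above 10 kb and at most 100 kb. Such regions are called mid-gene regions here, and the members are the 3490 with a log2 ratio of 1 or more. The ratio is log2((OL + 1) / (OPC + 1)) of the average signal, so both libraries chose the members and the ratio is given as a description only. The 537 mid-gene regions at a log2 ratio of -1 or less are called OPC-high, and the 3751 between these limits are called similar.

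The OLs were made in culture from C57BL/6 progenitors by 48 h without PDGF-AA and with T3, a thyroid hormone, at 40 ng/mL, which left them postmitotic. The OPCs, which still divided, came from the dissociated cortex of mice at postnatal day 7 by selection with an antibody to PDGFRA. Both states were grown in a serum-free medium that held the growth factors PDGF-AA (10 ng/mL), NT-3 (1 ng/mL) and CNTF (10 ng/mL). For the OLs this growth came before the 48 h without PDGF-AA. All cells were isolated and cultured together, the labels list 1.5e7 cells per library, and the number of mice is not given. Each state has 1 ChIP library, made with a monoclonal Nkx2.2 antibody, so no difference below has a replicate check and no test between states was possible. The third library, an input, was not analysed here, and the identity of the cells could not be checked, because ChIP signal is not expression.

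Nkx2.2 is a homeodomain transcription factor of the oligodendrocyte lineage, and mice without it make fewer differentiated oligodendrocytes. It is known chiefly as a repressor that recruits Groucho (TLE) corepressors, and it can also activate genes. Stretches of DNA inside a gene and far from its start often act as enhancers or silencers, of that gene or of a neighbour. A ChIP signal marks where the factor, or a complex that holds it, was found on DNA, and says nothing by itself about the activity of the gene.

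A log2 ratio of 1 or more was found at 37.5% of all regions of the table and at 44.9% (95% interval 43.8 to 46.0%) of the mid-gene regions, while 6.90% of the mid-gene regions were OPC-high. The median log2 ratio was 0.74 over all regions and 0.88 over the mid-gene regions. The deposited scale between the libraries is not known, and it sets how many regions are called on each side. On the deposited scale 3490 mid-gene regions were members and 537 were OPC-high. With the median of the regions called in both libraries set to 0, a shift of 0.24, the counts were 2649 and 784, and with the median of all regions set to 0, a shift of 0.74, they were 1328 and 1387. Under the strongest rescaling the 2 mid-gene counts were thus close, with the OPC-high count slightly larger, while the median log2 ratio of mid-gene regions stayed positive. Of the members, 38.1% kept a ratio of 1 or more there.

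At the members the OL signal was moderate and the OPC signal close to the lowest values the table holds. The median average signal was 5.88 in OL, with a range of 2.94 to 48.9, and 1.39 in OPC, with a range of 0 to 23.6, in the units of the deposited table. The highest signal within a member had a median of 12 in OL and 2 in OPC. In OPC, 613 members (17.6%) were listed at 0, a further 810 (23.2%) did not go above 1 at any position, and 1574 (45.1%) had a highest signal of 2 to 4. A highest OPC signal of 10 or more was seen at 141 members (4.04%). Over all regions, OPC was listed at 0 in 6.04% and had a highest signal of 1 in 8.10%. A highest OPC signal of 2 to 4 was seen in 29.0% of all regions and one of 10 or more in 25.2%. The rule favours low OPC signal, so the members' shares are a description. The members were mostly regions where little or no OPC signal was listed, with a small group that was clearly covered in both states.

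The calls of the submitters showed the same division. An interval was called in OL alone at 3283 members (94.1%) and in both libraries at 207 (5.93%), and no member was called in OPC alone. Among the similar regions 1685 (44.9%) were called in OL alone, 1437 (38.3%) in both and 629 in OPC alone, and among the OPC-high regions 479 (89.2%) were called in OPC alone and 58 in both. Calls and signals come from the same reads, so the shares of the member, similar and OPC-high regions follow in part from the ratio. The log2 ratio of a member listed at 0 in OPC depends on the added 1 and is no bound, so it serves here to order regions and is not read as a fold.

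**Figure D1:**
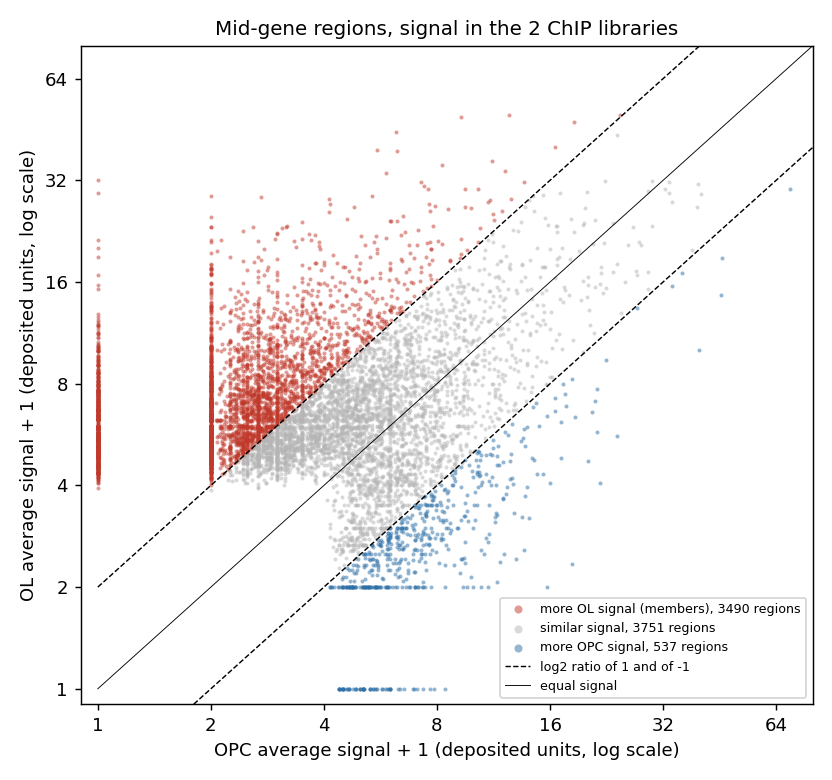
Average OL signal (vertical) against average OPC signal (horizontal), each with 1 added and on a log scale, for the 7778 mid-gene regions, 1 point per region. The members lie above the upper dashed line, and 613 of them form the left-hand column, where OPC is listed at 0.

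The members' log2 ratios had a median of 1.54, and 1656 members (47.4%) lay between 1 and 1.5. The largest value, 5.01, belonged to a region listed at 0 in OPC. A ratio of 2 or more was reached by 993 members, which is 12.8% of the mid-gene regions. One of 3 or more was reached by 111 members, which is 1.43% of the mid-gene regions. Over all regions the shares were 9.75% and 1.12%. The limit cut through a continuous distribution. Just inside it were regions in Map4k4 (5 in OL and 2.00 in OPC), Dennd1b (4 in OL and 1.5 in OPC), Cradd (5.29 in OL and 2.14 in OPC), Commd1 (9.40 in OL and 4.20 in OPC) and Fbxw11 (4.54 in OL and 1.77 in OPC). Just outside it were regions in Mtap1b (6.83 in OL and 2.92 in OPC), Snx9 (4.33 in OL and 1.67 in OPC), Snd1 (3.86 in OL and 1.43 in OPC), Slc31a1 (4.69 in OL and 1.85 in OPC) and Nhej1 (10.3 in OL and 4.68 in OPC).

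The strongest members were regions with OPC signal that was exceeded in OL. The 10 with the highest OL signal were all called in both libraries, and their log2 ratios ran between 1.02 and 2.84. Their OPC averages ran between 4.55 and 23.6, against a median of 3 over all regions. Below the regions in Sept11 (48.9 in OL and 23.6 in OPC) and Arhgap18 (48.8 in OL and 11.5 in OPC), the next was a region in Mef2c at chr13:83722763-83723703, with 48.4 in OL and 8.30 in OPC. Mef2c encodes a MADS-box transcription factor. A region in Nod1, a sensor of bacterial cell wall fragments, at chr6:54894730-54895720 had 46.6 in OL and 17.5 in OPC. One in Arl5b, an ARF-like small GTPase, at chr2:14989104-14990170 had 43.3 in OL and 5.21 in OPC, the largest log2 ratio of the 10, at 2.84.

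Of the other 5, 4 lay in genes of lipid chain elongation, matrix, peroxisome and microtubule proteins and 1 in Tmem108. A region in Elovl2, which elongates polyunsaturated fatty acids, at chr13:41298530-41299143 had 39.1 in OL and 15.5 in OPC. In Tnn, which encodes the matrix glycoprotein tenascin N, the region at chr1:162047434-162048432 had 38.5 in OL and 4.55 in OPC. Lonp2, a peroxisomal protease gene, held a region at chr8:89174956-89175868 with 38.2 in OL and 5.25 in OPC. Regions in Eml5, a gene of an EMAP-like microtubule protein (35.6 in OL and 10.2 in OPC), and in Tmem108 (34.6 in OL and 7.24 in OPC) were the lowest of the 10. An OL average above 10 was seen at 523 members (15.0%), against 10.7% of all mid-gene regions, and one above 20 at 77 members (2.21%), against 1.48%. The rule favours high OL signal, so these shares are a description.

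**Figure D2:**
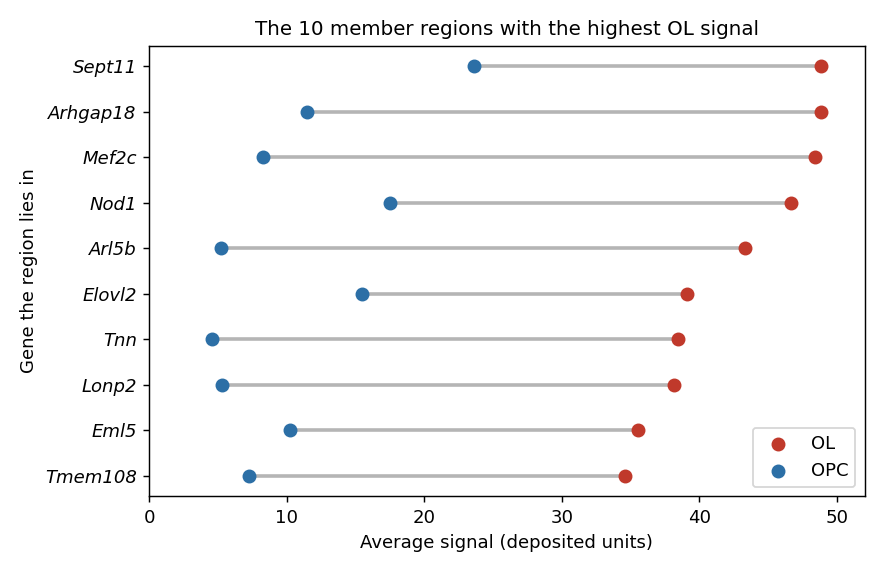
Average signal (deposited units) in OL (red) and OPC (blue) of the 10 members with the highest OL signal, 1 region per row with the gene it lies in. OL values run between 34.6 and 48.9 and OPC values between 4.55 and 23.6, and OL is above OPC in every row by the choice of the members.

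The 10 members with the highest OPC signal shared Sept11, Nod1, Elovl2 and Arhgap18 with that group. The other 6 lay in Scfd2 (30.6 in OL and 12.6 in OPC), A330019N05Rik, now Clvs2 (27.3 in OL and 11.6 in OPC), Crispld2 (33.0 in OL and 11.2 in OPC), AU022870, now Ccz1 (25 in OL and 10.9 in OPC), Gulp1 (23.5 in OL and 10.4 in OPC) and Slc44a1 (24.4 in OL and 10.3 in OPC). Gulp1 encodes an adaptor of phagocytosis and Slc44a1 a choline transporter. Their log2 ratios lay between 1.11 and 1.48, near the limit of the selection.

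At the opposite end stood regions listed at 0 in OPC, whose order by ratio is the order of their OL signal. Of the 10 largest log2 ratios, 9 belonged to such regions, and none of the 10 was called in OPC. Ndst3, a heparan sulfate modifying enzyme, and Katnal2, a gene related to the microtubule-severing katanins, led. The Ndst3 region had an OL average of 31.2 and a highest OL signal of 61, and the Katnal2 region 28.3 and 110. After Pax2 (20.3 in OL), Usp37 (19.2 in OL) and Vprbp, now Dcaf1 (18.0 in OL), came regions in 4 further genes that were listed at 0 in OPC. A region in Srgap1, a GTPase-activating protein that acts downstream of Robo receptors, at chr10:121391576-121391940 had 15.8 in OL. Regions in Zc3h3 at chr15:75623253-75623828, in Atxn7l4, now Atxn7l1, at chr12:33929201-33929806 and in Lrrc20 at chr10:60987478-60987752 had 14.7, 14.2 and 11.9 in OL. The remaining region of the 10 lay in Commd1, a regulator of copper handling and of NF-kB, at chr11:22830110-22830803, with 27.8 in OL and 1.00 in OPC and highest signals of 86 in OL and 1 in OPC. Commd1 therefore held a member of very large ratio and another, named above, at the limit.

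The members lay in 2477 genes, which is 60.8% of the 4072 genes that held any mid-gene region. Most of these genes, 1784, held 1 member, 462 held 2, 159 held 3 and 53 held 4, and 19 held 5 or more. The share of genes that held a member grew with the number of mid-gene regions, as 47.8% of genes with 1 such region, 67.8% of genes with 2 and 78.9% of genes with 3 held at least 1 member. In 1304 genes every mid-gene region was a member, but 1043 of these genes had a single mid-gene region. Among the 958 genes with 2 mid-gene regions, both were members in 202, 1 was in 448 and neither in 308. Gene names were matched to RefSeq symbols or synonyms for 2370 of the 2477 genes (95.7%), and older names are printed as the table has them.

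Dock4, an exchange factor for small GTPases of the Rac and Rap families, held the most members, 9 of its 10 mid-gene regions. They lay between 18010 and 97896 bp from its start, over 80778 bp of chromosome 12. In order of distance their OL averages were 4.77, 6.15, 8.02, 7.70, 20.5, 22.2, 6.55, 7.17 and 9.82, beside OPC averages of 1.67, 1.30, 3.15, 1.54, 8.27, 1.59, 1.00, 1.00 and 1.88. The 2 strong OL regions in the middle of this stretch thus differed in OPC, where the one 38390 bp from the start was called and the one 49004 bp from the start was not. The tenth region did not have more signal in OL.

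Tnr and Mtap6 held 7 members each, of 10 and 9 mid-gene regions. Tnr encodes tenascin R, a matrix glycoprotein of the central nervous system that cells of the oligodendrocyte lineage make. Its members had OL averages of 12.5, 3.6, 8.57, 9.17, 17.5, 11.6 and 11.7 in order of distance, beside OPC averages of 1.67, 1.00, 1.44, 1.00, 1.43, 2.24 and 4.59. Mtap6, now Map6, encodes a microtubule-stabilising protein, and its members had OL averages of 6.70, 4.67, 12.8, 8.87, 18.5, 11.7 and 4.33, beside OPC averages of 2.05, 1.00, 2.19, 2.67, 5.77, 1.56 and 1.00. In each of these genes 1 member was called in OPC. Across the members of Dock4, of Tnr and of Mtap6 the ranges of the 2 libraries overlapped, since the lowest OL value of each gene was below its highest OPC value.

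Ell, an elongation factor of RNA polymerase II, was the gene of this group in which every mid-gene region was a member. Its 5 regions had OL averages of 10.4, 7.50, 17.4, 5.41 and 4.50, beside OPC averages of 1.71, 1.88, 1.60, 1.60 and 0, and none was called in OPC. Abtb2 held 7 members of 12 mid-gene regions, with OL averages of 3.38 to 9.6 and OPC averages of 0 to 2.71. In Rapgef1, an exchange factor for Rap1, 5 of 10 regions were members, with OL averages of 3.46 to 20.0 and OPC averages of 0 to 4.44. The solute carrier gene 3110004L20Rik, now Slc22a23, held 5 of 6, with OL averages of 3.54 to 22.4 and OPC averages of 0 to 6.81.

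The 3 other genes with the most members were Syn3, D930010J01Rik and Tmem117. Syn3, which encodes synapsin III, held 6 of 8, and all were weak, at 3.33 to 4.95 in OL and 1.00 to 1.73 in OPC. For 3 of these the smallest distance was to another gene listed for the region, Timp3 or Fbxo7, and their distance from the Syn3 start reached 440946 bp. D930010J01Rik, now Macrod1, held 5 of 9 (4.46 to 14.1 in OL and 1.00 to 4.4 in OPC). Tmem117 held 5 of 8 (4.07 to 13.4 in OL and 1.00 to 4.71 in OPC) and also 1 OPC-high region.

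**Figure D3:**
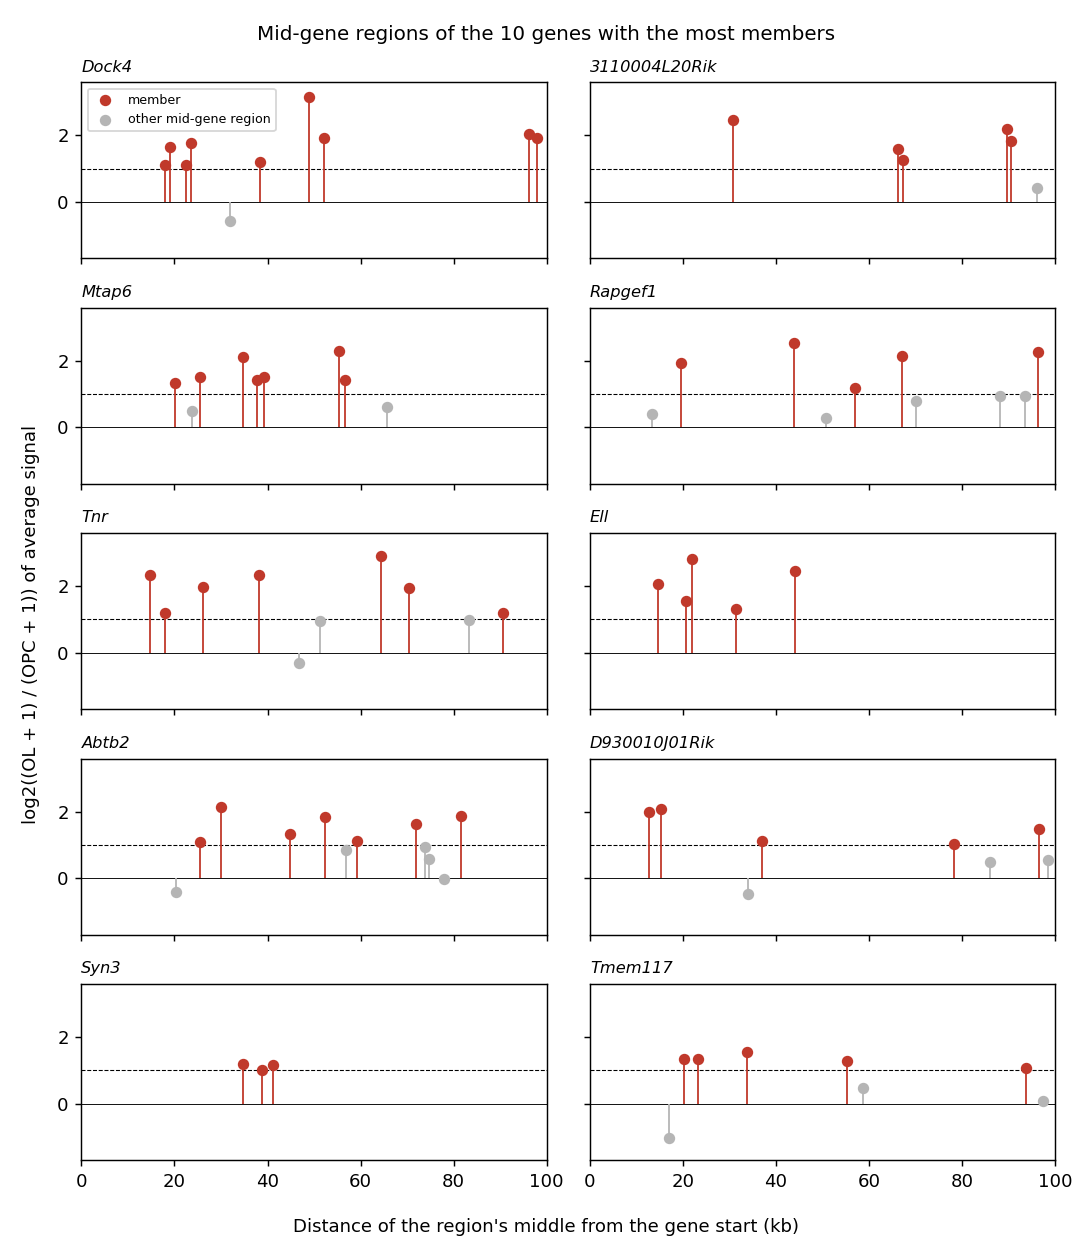
Log2 ratio of OL over OPC average signal against the distance of the region's middle from the gene start (kb) for the mid-gene regions of the 10 genes with the most members, red for members and grey for other mid-gene regions, with the selection limit dashed. Regions more than 100 kb from that start, among them 3 Syn3 members, are not drawn, and 9 of the 10 Dock4 regions stand above the limit.

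Some genes held both members and OPC-high regions. Of the 490 genes with an OPC-high region, 211 also held a member. The 60.8% over all genes with a mid-gene region is no like background for this count. An OPC-high region is itself not a member, and a gene with 1 mid-gene region cannot hold both kinds. Dennd2a, with a DENN domain found in Rab exchange factors, held 4 members and 2 OPC-high regions among 9, interleaved along the gene. Its members had 4.91 to 7.86 in OL and 1.25 to 2.00 in OPC, whereas its OPC-high regions had 1.00 and 3.11 in OL and 6.72 and 10.0 in OPC. Srgap2, a relative of Srgap1, held 2 members (10.4 and 14.0 in OL, 2.14 and 2.00 in OPC) and 3 OPC-high regions, with 1.4 to 2.70 in OL and 4.50 to 6.41 in OPC. Cpvl, Cdc42se2 and Sema5b held 3 members and 2 OPC-high regions each. In Sema5b, a semaphorin gene, a member at 70633 bp from the start (8.00 in OL and 1.00 in OPC) and an OPC-high region at 72511 bp (2.65 in OL and 11 in OPC) were neighbours.

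To describe which kinds of genes held members, 24 gene lists with 675 distinct genes were counted. The counts below are set beside the shares over all genes, 60.8% of genes with a mid-gene region and 44.9% of mid-gene regions. Regions of a gene share their source, so the intervals of list shares cover counting error over regions only. Under the largest rescaling, the shift of 0.74, every list median below 0.74 is negative.

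Genes that mark newly formed oligodendrocytes held members at a share above the background, though no test of the difference was run. All 13 genes of this list with a mid-gene region held a member, and 30 of their 45 mid-gene regions were members, which is 66.7% (51.0 to 80%). The 60.8% over all genes is no like background for genes with several mid-gene regions. Of all genes with 3 such regions 78.9% held a member, and of those with 4 85.5%. The list was written with earlier results of these data known. The median log2 ratio of the 45 regions was 1.20, and 1 of them was OPC-high. The strongest member, in the focal adhesion gene Tns3 at chr11:8537706-8538898, had 21.2 in OL, beside 2.65 in OPC, and the other 3 Tns3 members had 9.19, 6.25 and 5.64 in OL and 3.63, 2.00 and 1.00 in OPC. Fyn, a Src-family kinase that promotes process outgrowth of oligodendrocytes, held 5 members of 9, the strongest at chr10:39141679-39142871 with 11.6 in OL and 0 listed in OPC. Tcf7l2, an HMG-box transcription factor of the Wnt pathway that oligodendrocytes express at the onset of differentiation, held 5 of 6, with 4.08 to 9.29 in OL and 1.00 to 2.39 in OPC.

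The other named genes of this list had fewer members. Itpr2, an inositol trisphosphate receptor gene, held 3 of 4, with 14.6, 7.13 and 4.60 in OL beside 3.27, 2.83 and 0 in OPC. Samd4b, whose protein binds RNA, held 1 of 1, with 17.2 in OL and 3.33 in OPC. In Mpzl1, 1 of 2 was a member, with 10.1 in OL and 4.32 in OPC, and it was called in both libraries. These gene names come from expression markers, and no expression was measured here.

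Few myelin genes held mid-gene regions. Of the 7 genes with a mid-gene region 6 held a member, and 13 of 25 regions were members (52.0%, 31.3 to 72.2%), with a median log2 ratio of 1.05 and no OPC-high region. Mbp, which encodes myelin basic protein, held 4 of 8, with 6.25, 8.04, 6.28 and 5.15 in OL beside 1.88, 3.36, 1.70 and 1.74 in OPC. Nfasc, the adhesion protein neurofascin of the paranode and node, held 3 of 4, with 11.6, 4.80 and 9.25 in OL beside 2.07, 0 and 1.4 in OPC. For the galactolipid enzymes Fa2h and Ugt8a, the strongest members had 13.0 and 9.50 in OL and 4.46 and 3.55 in OPC, and both were called in both libraries. Pmp22 (5.63 in OL and 1.83 in OPC) and the RNA-binding gene Qk (5.33 in OL and 2.00 in OPC) held 1 each.

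Markers of OPCs and lineage transcription factors held members at shares below the background of 44.9%, with intervals that included it. OPC marker genes held members in 7 of 12 genes and 15 of 40 regions (37.5%, 22.7 to 54.2%), with a median log2 ratio of 0.75 and no OPC-high region, and 7 of these 15 were the Tnr members described above. Of the rest, Lhfpl3 had 14.6 in OL and 6.72 in OPC, Sox5, an SRY-box factor, 9.63 in OL and 1.57 in OPC, and Cspg4, the NG2 proteoglycan, 5.57 in OL and 2.11 in OPC. Lineage transcription factors held members in 9 of 13 genes and 16 of 43 regions (37.2%, 23.0 to 53.3%), with a median of 0.68 and 1 OPC-high region.

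Within the lineage factors, single strong members occurred beside regions that were not members. Nfix, a nuclear factor I gene, held 1 member of 5 (16 in OL and 1.00 in OPC), and its relative Nfia held 1 of 5 (9.86 in OL and 1.00 in OPC). St18, a zinc finger gene of the Myt1 family, held 1 of 2 (14.9 in OL and 1.43 in OPC). Zeb2, a zinc finger and homeobox factor needed for myelination in mice, held 5 of 8, with 5.73 to 10.3 in OL and 1.25 to 3.42 in OPC. Tcf4, a class I basic helix-loop-helix gene, held 3 members of 5 and 1 OPC-high region.

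Cell adhesion and axon guidance genes held members at shares that included the background. Adhesion genes had members in 19 of 29 genes and 37 of 92 regions (40.2%, 30.1 to 51.0%), with a median of 0.87 and 13 OPC-high regions. Opcml, an IgLON protein gene, held 2 of 2 (19.6 and 9.27 in OL, 6.08 and 1.95 in OPC), and the cadherin gene Cdh10 held 3 of 3 (13.1, 5.88 and 3.29 in OL, 1.5, 0 and 0 in OPC). Guidance genes had members in 21 of 31 genes and 39 of 83 regions (47.0%, 35.9 to 58.3%), with a median of 0.97 and 7 OPC-high regions. Nrp1, a co-receptor for class 3 semaphorins and VEGF, held 3 of 4, and the one at chr8:130977858-130978449 had 24.0 in OL and 1.00 in OPC. Sema4d, a transmembrane semaphorin made by oligodendrocytes, held 5 of 6, with 3.90 to 12.6 in OL and 1.33 to 4.31 in OPC.

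Receptor and channel genes also held members. Glutamate and GABA receptor genes had them in 14 of 19 genes and 19 of 37 regions (51.4%, 34.4 to 68.1%), with a median of 1.05 and 2 OPC-high regions. The AMPA receptor gene Gria2 held 4 of 5, with 4.68 to 7.52 in OL and 1.00 to 2.78 in OPC. Ion channel genes had members in 16 of 27 genes and 20 of 53 regions (37.7%, 24.8 to 52.1%), with a median of 0.83 and 6 OPC-high regions. Cacna1b, which encodes the pore of N-type calcium channels, had the strongest, with 16.7 in OL and 1.83 in OPC.

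Each signalling pathway rested on few regions, and the intervals of all of them included the background of 44.9%. Wnt pathway genes had members in 9 of 16 genes and 18 of 31 regions (58.1%, 39.1 to 75.5%), with a median of 1.18 and no OPC-high region, and 5 of these 18 members are the Tcf7l2 regions also counted among the newly formed oligodendrocyte genes. The Wnt receptor gene Ryk had 29.8 in OL and 6.41 in OPC. The strongest of 3 members in the planar polarity gene Prickle1 had 18.0 in OL, beside 1.25 in OPC, and that in the scaffold gene Axin1 had 12.8 in OL, beside 1.67 in OPC. Hedgehog genes had members in 2 of 5 genes and 3 of 16 regions (18.8%, 4.05 to 45.6%), with a median of 0.16 and 3 OPC-high regions. The hedgehog members were 2 in the co-receptor gene Cdon (5.91 and 5 in OL, 1.22 and 1.00 in OPC) and 1 in the transcription factor gene Gli2 (4.31 in OL and 0 listed in OPC).

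Notch, BMP and TGF-beta, and growth factor receptor genes were counted in the same way. Notch pathway genes had members in 8 of 10 genes and 12 of 25 regions (48.0%, 27.8 to 68.7%), with a median of 0.77 and 3 OPC-high regions, and the strongest was in the receptor gene Notch3 (21.4 in OL and 2.00 in OPC). BMP and TGF-beta genes had them in 10 of 14 genes and 17 of 38 regions (44.7%, 28.6 to 61.7%), with a median of 0.79 and 2 OPC-high regions. Smad1, which transmits BMP signals, had 17.5 in OL, beside 5.48 in OPC, and the receptor gene Bmpr1a held 2 of 2 (11.4 and 10.9 in OL, 3.13 and 1.57 in OPC). Growth factor receptor genes had members in 9 of 15 genes and 12 of 30 regions (40.0%, 22.7 to 59.4%), with a median of 0.75 and 3 OPC-high regions. Lifr, a receptor subunit for LIF and for the CNTF in the medium, led with 16.4 in OL and 1.00 in OPC.

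Among lipid, chromatin and RNA-binding genes the shares lay above the background with intervals that included it. Cholesterol and lipid genes had members in 11 of 17 genes and 16 of 29 regions (55.2%, 35.7 to 73.6%), with a median of 1.03 and 2 OPC-high regions. Lpin2, a phosphatidate phosphatase gene, had 10.2 in OL and 0 listed in OPC, and Acaca, the acetyl-CoA carboxylase of fatty acid synthesis, held 3 of 3 (8.61, 7.72 and 5.41 in OL, 2.00, 1.43 and 2.14 in OPC). Chromatin factors and corepressors had members in 18 of 22 genes and 32 of 70 regions (45.7%, 33.7 to 58.1%), with a median of 0.87 and 3 OPC-high regions. They included the remodelling genes Arid1b (19.5 in OL and 2.88 in OPC) and Chd9 (16.9 in OL and 1.00 in OPC) and the Groucho family corepressor gene Tle3 (13.5 in OL and 2.00 in OPC). RNA-binding protein genes had members in 16 of 24 genes and 25 of 51 regions (49.0%, 34.8 to 63.4%), with a median of 0.94 and 3 OPC-high regions, led by the CELF family gene Brunol4 (21.9 in OL and 6.11 in OPC).

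Cyclic nucleotide genes had members in 14 of 23 genes and 18 of 50 regions (36.0%, 22.9 to 50.8%), with a median of 0.83 and 5 OPC-high regions, and the anchoring protein gene Akap13 had the strongest (14.1 in OL and 2.53 in OPC). Thyroid hormone genes, among them receptors and transporters of the T3 added to the OL medium, had members in 5 of 8 genes and 9 of 21 regions (42.9%, 21.8 to 66.0%), with a median of 0.72 and 1 OPC-high region. Ncoa2, a nuclear receptor coactivator gene, held 1 of 2 (6.56 in OL and 2.00 in OPC).

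Markers of other cells held few mid-gene regions. The neuron markers had 1 such region, in Syt1, and it was a member (5.29 in OL and 1.25 in OPC). Astrocyte markers had members in 3 of 3 genes and 3 of 11 regions (27.3%, 6.02 to 61.0%), namely in Slc1a3 (5.56 in OL and 2.00 in OPC), Aldh1l1 (5.53 in OL and 1.00 in OPC) and Slc1a2 (5.44 in OL and 1.00 in OPC), and 3 of the 11 were OPC-high, with a median log2 ratio of -0.30 over the 11. Microglia markers had no mid-gene region, vascular markers had 1 that was not a member, and liver and muscle genes had 6 of which 1, in Myh1, was a member (5.05 in OL and 1.39 in OPC). ChIP signal at a marker gene does not show that its cell type was present.

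**Figure D4:**
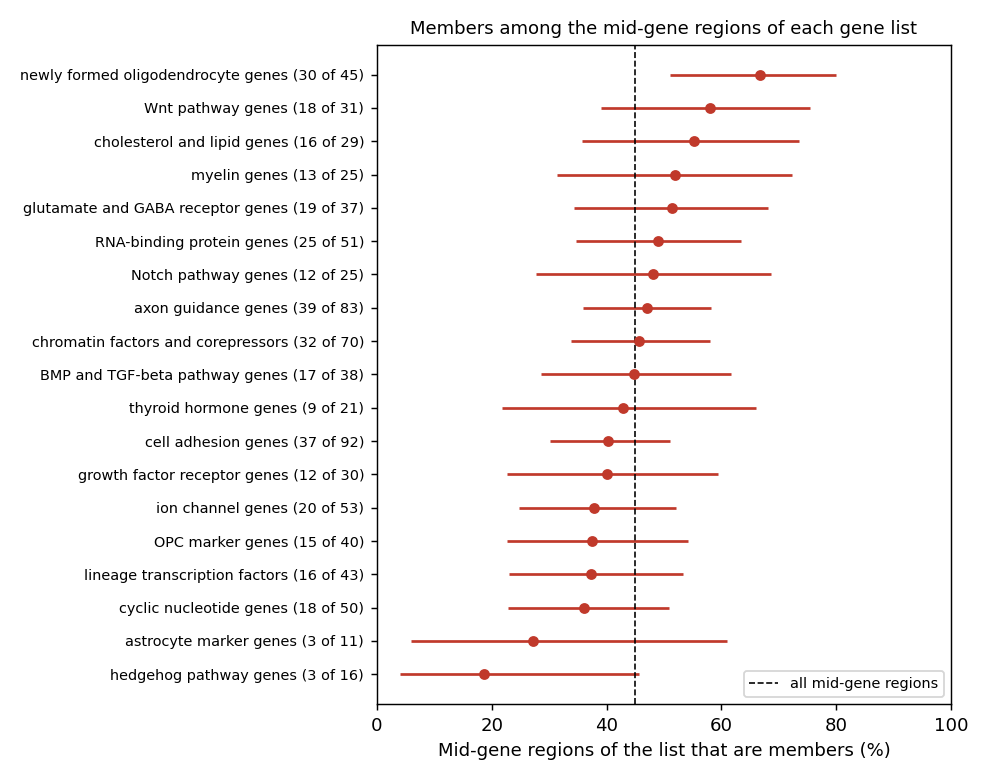
Share of the mid-gene regions of each gene list that are members (%), with exact 95% intervals over regions and the number of members and regions beside each name, for 19 lists with more than 10 mid-gene regions. The dashed line is the share over all mid-gene regions, 44.9%, and the interval of the newly formed oligodendrocyte genes, 51.0 to 80%, lies above it. The lists were written with earlier results of these data known.

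Length and distance, which the rule on the ratio did not use, were compared with those of other mid-gene regions. Members had a median length of 544 bp, against 507 bp for OPC-high and 588 bp for similar regions. The regions with 2 or more merged intervals were those called in both libraries, so length is tied to the calls and through them to the signal. Among mid-gene regions of up to 446 bp 50.3% (48.1 to 52.6%) were members and 9.77% were OPC-high, and among those of 720 bp or longer 38.7% (36.5 to 40.9%) were members and 4.70% were OPC-high. Shorter regions thus held a larger share on both sides.

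Distance within the window made little difference. The members' median distance to a gene start was 36059 bp, against 38528 bp for OPC-high and 36429 bp for similar regions, and between 10 and 100 kb the share of members stayed between 42.1% and 47.2%. Most members, 3313 (94.9%), had 1 listed gene, 164 (4.70%) were also listed for a gene they did not lie in, and 13 (0.37%) lay in more than 1 gene. Over all mid-gene regions these shares were close, at 95.3%, 4.22% and 0.48%.

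Across the table, members belonged to a larger class of regions away from gene starts. Mid-gene regions reached a log2 ratio of 1 or more in 44.9% of cases and regions in genes beyond 100 kb in 44.0% (42.6 to 45.5%), with overlapping intervals. The share was 42.2% (40.4 to 44.1%) in genes at 1 to 10 kb, 40.6% (39.6 to 41.5%) for regions with no assigned gene and 39.3% (37.7 to 40.9%) for regions only upstream or downstream of genes. It was lower within 1 kb of a start without a CpG island, at 22.6% (20.2 to 25.2%), and at CpG islands, at 19.4% (18.4 to 20.4%). The share at a ratio of -1 or less was also lowest at CpG islands, at 1.07%, and was 5.35% within 1 kb of a start. That share was 6.90% for mid-gene regions, 8.68% in genes beyond 100 kb and 10.6% with no assigned gene. Ratios of 1 or more were thus not particular to the mid-gene window, and CpG islands had small shares at both limits.

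**Figure D5:**
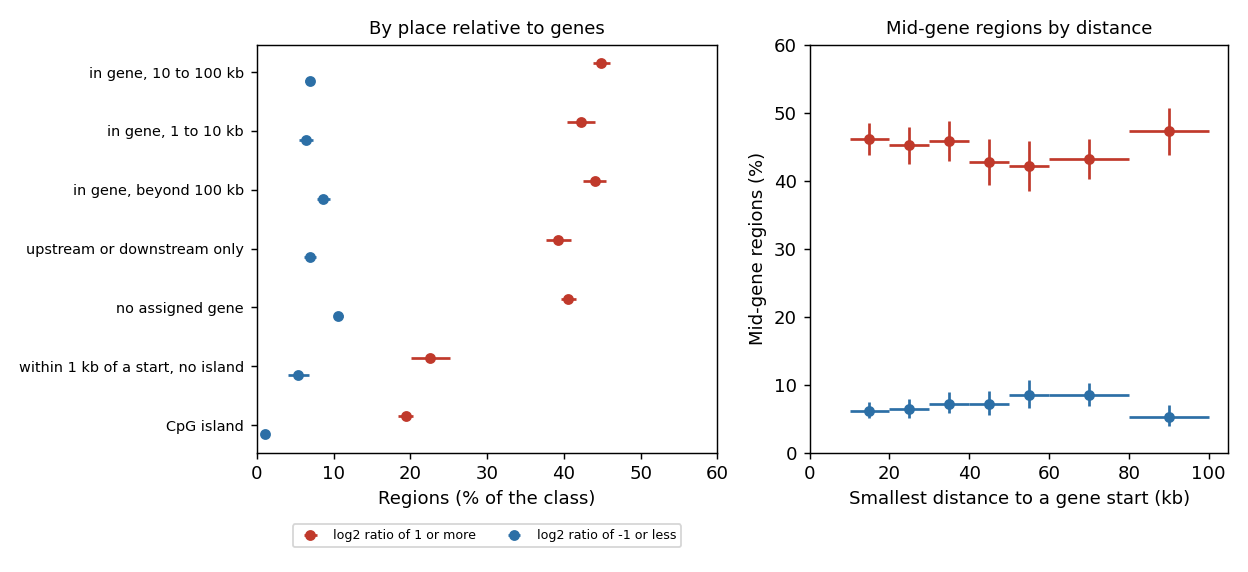
Share of regions (%) at a log2 ratio of at least 1 (red) and of -1 or less (blue), left by place relative to genes and right by distance to the nearest listed start (kb) for mid-gene regions, with exact 95% intervals over regions as horizontal bars on the left and vertical bars on the right. The red shares are 19.4% at CpG islands and 22.6% within 1 kb of a start, and 39.3% to 44.9% elsewhere. The blue share is lowest at CpG islands as well, at 1.07%.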

How the data were processed

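Nkx2.2 ChIP-seq libraries of OLs and OPCs, 1 of each, were compared. Per the file headers, the authors merged the intervals called per library into regions and deposited 1 table with the average and highest signal of each library per region, a call mark per library, and counts, names, distances and positions of genes, promoters and CpG islands. Per the submitters' processing notes, BWA, MACS 1.4.2 and build mm9 were used. Not given in the sources used here are the calling threshold, any use of the input, fragment extension and scaling of the signal. The deposited average signal held no value between 0 and 1, and each region with a highest signal of 1 had an average of exactly 1, so uncovered positions appear to be left out of it. Sequencing depth is unknown. Distances run from the middle of a region, and the table does not say whether starts count from 0 or 1 or whether a region is exonic or intronic.

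The rule was applied with a pseudocount of 1, which understates the ratio of weak regions, and no filter on low signal. Intervals on shares are Clopper-Pearson at 95% and cover counting error alone. No test between states was run. Named regions were the 10 members with the highest OL signal, the 10 with the highest OPC signal and the 10 with the largest ratio, all members of the 10 genes with the most, the 5 regions on either side of the limit, the 5 genes with most regions of both kinds, and at most 6 genes per list by OL signal. The members and the gene lists were chosen with earlier results of these data known. Of the 24 lists, 1 is not reported here, nor are a few single genes. Alternatives in pseudocount, signal measure, filter, scaling, limits and distance were tried. The RefSeq gene table of GRCm38.p6 was used for names alone, and no sequence of the regions was analysed here. Python 3.11.15, pandas 2.3.3, numpy 2.4.6, scipy 1.17.1 and matplotlib 3.10.9 were used, and the counting was tested on simulated data.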

Additional observations from a re-analysis of the deposited data

How the results depend on the processing

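The rule found 3490 members as reported. With the regions called in both libraries set to 0 it found 2649, with a call in OL alone 3283 and with distances from 20 kb 2661. From the highest signal it found 4524, which include 3457 of the 3490. Fewer were found with a pseudocount of 5 (889), the low-signal filter (1999), all regions set to 0 (1328) and a log2 ratio of 2 or more (993). The share of mid-gene regions (44.9% as reported) was 42.2% with a call in OL alone, 58.2% from the highest signal, 12.8% at a ratio of 2, 49.9% with the filter, 53.0% and 11.4% with pseudocounts of 0.1 and 5, and 17.1% and 34.1% with all and with shared regions set to 0. The median log2 ratio of mid-gene regions (0.88) was 1.22 from the highest signal, 1.00 with the filter, 1.10 and 0.47 with pseudocounts of 0.1 and 5, and 0.14 and 0.64 with all and with shared regions set to 0, positive throughout. Genes with a member (2477) numbered 886 at a ratio of 2, 1577 with the filter, 800 with a pseudocount of 5 and 1132 with all regions set to 0, and list genes with a member (240) numbered 91 at a ratio of 2, 90 with a pseudocount of 5 and 116 with all regions set to 0. Of the 87 members named for OL signal, OPC signal, ratio or the genes with most members, 44 fell below a ratio of 1 with all regions set to 0. With a pseudocount of 5, 45 of the 87 fell below it, and with shared regions set to 0, 21 did. All 87 stayed at 1 or more with a pseudocount of 0.1. The members' median distance was 45736 and 30002.5 bp with windows from 20 and 5 kb, 34739 bp measured to the start of the gene around the region and 37439 bp with the filter. Their median length was 529 bp with a call in OL alone, 510 bp at a ratio of 2, 613 bp with the filter and 610 bp with a pseudocount of 5. The share with 1 listed gene was 96.7%, 89.7% and 91.8% with windows from 20 and 5 kb and the other distance. The cause of these shifts was not tested where the setting does not itself change which regions are counted.

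No paired analysis was possible because each state has 1 library and the result comes from no test. The motif alternative was not run, since no genome of build mm9 was used here. Depth limits cannot be given for signal values.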

Other observations

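The nearest other region to a member lay 12771 bp away at the median and had a log2 ratio of 1 or more in 42.6% (41.0 to 44.3%) of cases, against 33.3% (29.4 to 37.5%) beside OPC-high regions, 37.7% (36.2 to 39.3%) beside similar regions, 39.6% beside all mid-gene regions and 37.2% beside all regions. Among the 334 members with a neighbour closer than 2 kb, the neighbour had such a ratio in 50.9% (45.4 to 56.4%), against 21.8% (13.2 to 32.6%) of the 78 OPC-high regions and 31.7% (27.4 to 36.3%) of the 441 similar regions with so near a neighbour. With a neighbour closer than 2 kb, the share was 38.3% for all mid-gene regions and 31.5% for all regions. The neighbour's median log2 ratio was 1.02 for members, 0.05 for OPC-high and 0.59 for similar regions at that distance. A neighbour can itself be a member, and neighbouring regions share both libraries.

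A region within 1 kb of the gene's own start was listed for 1150 of the 2477 genes with a member (46.4%, 44.4 to 48.4%) and for 604 of the 1595 genes with mid-gene regions but no member (37.9%, 35.5 to 40.3%). Genes with members also had more mid-gene regions, and gene length was not matched. The median log2 ratio of the start regions was 0.62 for genes with a member and 0.60 for genes without, and 21.6% (19.2 to 24.1%) and 19.7% (16.6 to 23.1%) of them reached 1. The ratio at the start thus differed little with the presence of a member in the gene.

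By chromosome, the share of mid-gene regions that were members ran between 39.3% on chromosome 19 (92 of 234) and 48.8% on X (41 of 84). Chromosome X also had the highest share of OPC-high regions, 13.1% (6.72 to 22.2%), or 11 of 84. The member with the most listed genes, 24, lay in Diap1 beside the Pcdhg cluster and had 13.0 in OL and 5.77 in OPC, a region chosen after its values were seen.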
